A study of Mus musculus with 8 samples.

Results

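The regions described here were the 877 intervals on mouse chromosome 4, out of 11180 in the whole series, whose H3K27ac CUT&RUN intensity was called different between Nrip1 KO and control myotubes. They were chosen by their chromosome and by the authors' call of a 2-fold or greater difference in peak intensity, and they comprised 66 regions increased in the KO and 811 regions decreased in it. The study comprised 8 CUT&RUN libraries, with 2 replicates of H3K27ac and 2 of control IgG from each genotype, labelled Nrip1KO and Ctrl. Both genotypes were cultured by the same protocol, in which satellite cells from mouse gastrocnemius muscle were expanded, passaged and differentiated into myotubes for 4 days, and nuclei were pooled before they were split between antibodies. The study used mice with Cre driven by the muscle creatine kinase promoter and mice with Cre driven by myogenin, and which of them gave these cells, or at what age, is not given in the sources used here. Differential regions alone were analysed, without values per library, so the depth, the size of each difference, the IgG background and the variation of the replicates are unknown, and neither the loss of Nrip1 nor the identity of the cells could be checked.

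H3K27ac is the acetylation of lysine 27 of histone H3, a mark carried by nucleosomes at active promoters and enhancers. CUT&RUN maps such a mark by releasing the DNA around an antibody with a tethered nuclease. Nrip1 encodes RIP140, a coregulator without DNA binding of its own that is recruited by nuclear receptors and other transcription factors and is known in skeletal muscle as a repressor of oxidative metabolism. Myotubes are the multinucleated cells formed when myoblasts fuse, and their regulatory DNA is read by factors such as the MyoD family, which bind E-boxes, and by MEF2, TEAD and AP-1 proteins.

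The sequences below show what DNA lay in regions of either direction that the results turn on, first 3 increased regions within 1 kb of a transcription start and then 5 decreased regions. They are taken from the forward strand of the GRCm38.p6 assembly, which has the same coordinates as mm10. Capitals mark CpG dinucleotides and matches to 4 motifs, namely AP-1 (TGACTCA or TGAGTCA), the E-box CAGCTG, TEAD (GCATTCC or ACATTCC) and MEF2, each searched on both strands.
9630013D21Rik start, chr4:109657512-109657711: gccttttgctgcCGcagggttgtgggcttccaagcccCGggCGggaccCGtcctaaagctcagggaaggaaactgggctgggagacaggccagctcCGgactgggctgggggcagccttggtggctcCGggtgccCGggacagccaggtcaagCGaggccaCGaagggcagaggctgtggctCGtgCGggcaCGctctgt
Patj, chr4:98436928-98437127: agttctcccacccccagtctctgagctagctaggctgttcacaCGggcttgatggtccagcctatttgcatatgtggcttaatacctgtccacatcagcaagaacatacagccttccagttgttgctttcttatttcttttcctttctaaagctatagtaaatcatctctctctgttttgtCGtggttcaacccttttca
Lrrc69, chr4:14756405-14756604: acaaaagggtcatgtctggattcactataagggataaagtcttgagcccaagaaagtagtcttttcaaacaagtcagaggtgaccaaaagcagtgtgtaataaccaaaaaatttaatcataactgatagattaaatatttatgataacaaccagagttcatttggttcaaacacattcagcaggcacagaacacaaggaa
These 3 increased sequences were the centres of the promoter-proximal increased regions whose centres lay nearest to a transcription start. The first, at the start of the non-coding gene 9630013D21Rik beside Cdkn2c, held 12 CpG dinucleotides and was 69% G or C, and it also came from the widest increased region of the chromosome. The sequence at Patj, at a start inside that gene, held 2 CpG dinucleotides at 44% GC, and that at Lrrc69 held none at 35% GC.
Chd7, chr4:8838072-8838271: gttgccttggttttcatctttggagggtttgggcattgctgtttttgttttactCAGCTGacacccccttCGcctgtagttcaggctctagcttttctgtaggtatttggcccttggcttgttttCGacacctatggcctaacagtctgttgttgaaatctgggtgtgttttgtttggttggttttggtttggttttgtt
Plpp3, chr4:105153812-105154011: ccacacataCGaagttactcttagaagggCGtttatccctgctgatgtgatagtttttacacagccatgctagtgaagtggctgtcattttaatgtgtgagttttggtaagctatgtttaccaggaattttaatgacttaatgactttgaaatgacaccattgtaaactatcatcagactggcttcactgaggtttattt
Arhgef10l, chr4:140581599-140581798: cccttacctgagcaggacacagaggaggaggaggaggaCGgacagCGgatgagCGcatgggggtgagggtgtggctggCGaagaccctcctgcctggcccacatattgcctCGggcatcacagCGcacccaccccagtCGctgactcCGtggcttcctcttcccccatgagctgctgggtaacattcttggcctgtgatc
These decreased sequences came from the 3 genes with the most decreased regions. Each was the centre of the region nearest to any annotated transcript start of its gene. For Chd7 and Arhgef10l that start lay inside the gene, away from its outermost start. Arhgef10l was taken before Hivep3, with the same number of regions, for its larger number of covered bases. The Chd7 sequence held the E-box CAGCTG, whereas those of Plpp3 and Arhgef10l held none of the 4 motifs. The Arhgef10l sequence held 8 CpG dinucleotides at 63% GC, and that of Plpp3 held 2 at 37.5% GC.
Pax7, chr4:139783077-139783376: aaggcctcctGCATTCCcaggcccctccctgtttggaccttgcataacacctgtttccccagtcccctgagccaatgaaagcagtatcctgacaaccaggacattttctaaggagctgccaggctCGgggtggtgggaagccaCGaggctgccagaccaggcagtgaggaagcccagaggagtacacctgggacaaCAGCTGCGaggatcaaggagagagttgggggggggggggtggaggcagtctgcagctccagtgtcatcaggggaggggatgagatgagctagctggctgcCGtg
Myom3, chr4:135769204-135769503: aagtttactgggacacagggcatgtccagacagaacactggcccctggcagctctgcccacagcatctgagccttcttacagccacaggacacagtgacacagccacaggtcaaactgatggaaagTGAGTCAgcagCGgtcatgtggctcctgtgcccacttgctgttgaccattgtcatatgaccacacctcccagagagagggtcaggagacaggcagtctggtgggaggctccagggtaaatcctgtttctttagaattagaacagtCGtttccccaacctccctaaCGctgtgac
These last windows were chosen after their values were seen, to show motif matches in decreased regions of muscle genes, and are longer at 300 bases. The Pax7 window, in an intron of the gene for the transcription factor of satellite cells, held a TEAD match and an E-box, the latter followed directly by a CpG. The Myom3 window, in an intron of the gene for an M-band protein of the sarcomere, held the AP-1 match TGAGTCA.

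Decreased regions prevailed along nearly the whole chromosome, and increased regions were few everywhere. In 10-Mb windows counted from the centromeric end, the number of decreased regions ranged from 2 in the third window to 142 in the fourteenth, whereas the number of increased regions ranged only from 1 to 10. In the third window, 4 increased regions stood beside 2 decreased ones, the only window with more increased than decreased regions, but with 6 regions it was too small to read a share. Among the 15 windows with at least 10 regions, the ninth had the highest share of increased regions, 10 of 30 or 33.3% (95% Wilson interval 19.2% to 51.2%). Its increased regions lay nearest to Lurap1l, Mpdz, Ttc39b, Bnc2, Rraga, Ifna15 and Mtap. The fifth window had the lowest share, 1 of 75 or 1.33%, and its single increased region lay at Dnaja1, which encodes an Hsp40 co-chaperone. All 15 windows lay below the 35.0% of the whole series, and with 5-Mb windows 23 of 24 did. That 35.0% averages over chromosomes that differed widely, since increased regions made up 97.7% of the regions on chromosome 7, 69.1% on chromosome 10 and 7.80% on chromosome 16, and chromosome 7 alone held 973 of the 3917 increased regions. Whether the cultures differed in the copy number of whole chromosomes was not tested, since no value per library was used. Because membership and direction come from the same contrast, these shares are a description and were not tested.

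**Figure D1:**
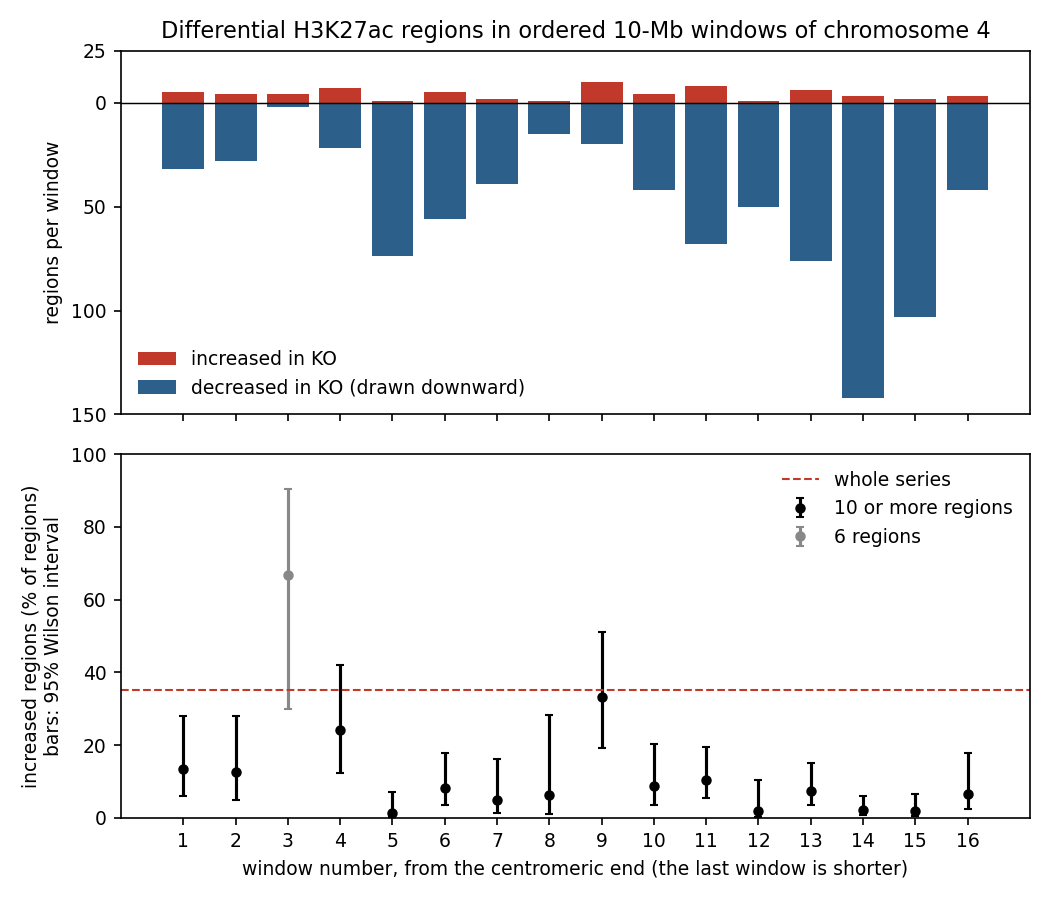
Numbers of increased (red, upward) and decreased (blue, downward) H3K27ac regions in ordered 10-Mb windows of chromosome 4, with the last window 6.5 Mb long, above the percentage of increased regions per window with 95% Wilson intervals (grey, the window with 6 regions). Decreased regions peaked at 142 in window 14, increased regions never exceeded 10, and every window with 10 or more regions had a share below the dashed line of the whole series at 35.0%.

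The number of decreased regions followed the gene content of the chromosome, whereas that of increased regions did not. The first 80 Mb, with 413 protein-coding genes and a GC content of 40.3%, held 268 decreased and 29 increased regions. The last 76.5 Mb, with 914 protein-coding genes and a GC content of 44.3%, held 543 decreased and 37 increased regions. Decreased regions were thus spaced at 3.35 per Mb in the former and 7.10 per Mb in the latter, compared with 0.363 and 0.484 per Mb for increased regions. The share of increased regions was 9.76% (6.88% to 13.7%) in the former and 6.38% (4.66% to 8.67%) in the latter, and these intervals overlap. The boundary at 80 Mb was chosen after the counts were seen. Over the 15 windows, Spearman's rank correlation coefficient between GC content and decreased regions per Mb was 0.871, and it was 0.842 between protein-coding genes per Mb and decreased regions per Mb. For increased regions per Mb the same coefficients were 0.00719 and -0.140. Windows share a chromosome and libraries, and GC content and gene density go together, so these coefficients describe the windows and carry no test. On the other chromosomes, over 232 windows, they were 0.632 and 0.447 for decreased regions and 0.00977 and -0.0112 for increased ones. Among windows with at least 10 regions, the first had the most decreased regions per protein-coding gene, at 1.23.

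Decreased regions lay close to each other, and increased regions lay apart. The median gap from a decreased region to the nearest decreased region was 15293 bp (quartiles 4888.5 and 46044.5), and 326 of 811 (40.2%) had such a neighbour within 10 kb. The median gap between an increased region and the nearest increased one was 549628 bp (quartiles 191669 and 1343260), and 0 of 66 had one within 10 kb, the closest pair being 16039 bp apart at Lurap1l. Increased regions were nearer to decreased ones, with a median gap of 105720 bp, and 6 of 66 (9.09%) had a decreased region within 10 kb. Those 6 lay nearest to Slc44a1, a choline transporter gene, Tnc, Prdm2, Gpr157, Errfi1 and Nadk, which encodes NAD kinase, and the closest was at Nadk, 1113 bp from a decreased region. For 772 of 811 decreased regions (95.2%) the nearest other region was also decreased, whereas for 19 of 66 increased regions (28.8%) it was increased. Of all 877 regions 811 were decreased, and increased ones made up 7.53%. The 28.8% thus lay above the share of increased regions, although their gaps in bp were long. Across the other 18 autosomes, the percentage of increased regions with an increased neighbour within 10 kb ranged from 3.77% to 40.3%. For decreased regions and decreased neighbours it ranged from 0% to 44.5%. The latter was chromosome 16, with a median gap of 11641 bp, so close spacing was not particular to chromosome 4. Such gaps shrink as a direction becomes more numerous. Chromosomes 14 and 16 also had 66 increased regions each, and 6 (9.09%) and 4 (6.06%) of these had an increased neighbour within 10 kb.

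**Figure D2:**
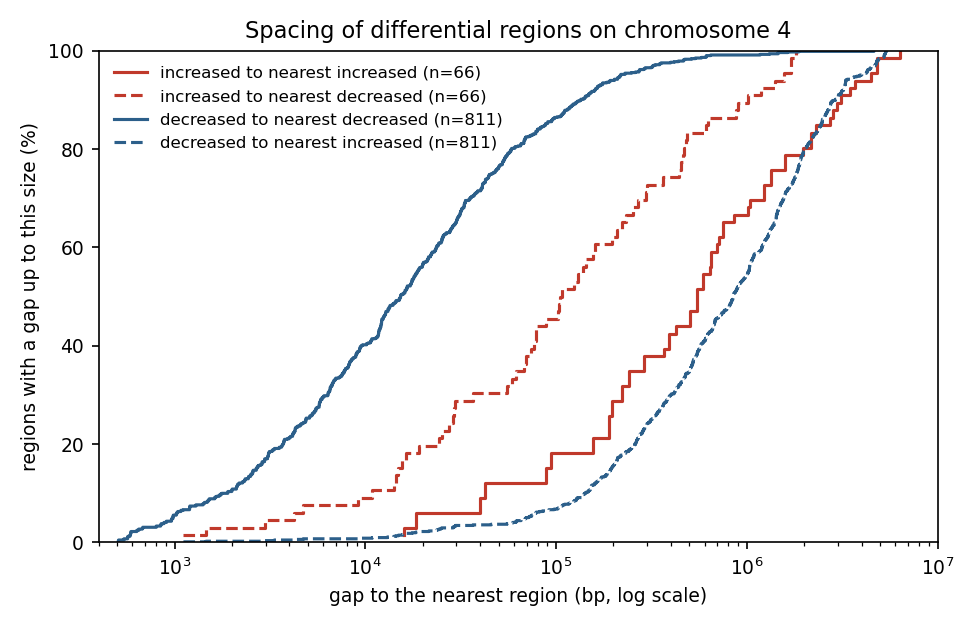
Cumulative percentage of regions on chromosome 4 whose gap to the nearest region of the given direction is at most the value on the horizontal axis, in bp on a log scale. The curve for decreased regions and their nearest decreased neighbours lies farthest left (median 15293 bp), and the solid curve for increased regions starts at 16039 bp.

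Read in order along the chromosome, the regions fell into 50 runs of increased and 50 runs of decreased regions. Of the increased runs, 37 were single regions, 11 were pairs, and 2 were longer. The longest had 4 regions over 0.532 Mb from Lurap1l to Mpdz, which encodes a multiple PDZ domain scaffold protein. The other had 3 regions over 2.77 Mb from Usp45, a deubiquitinase gene, to Mms22l, which encodes a protein of replication fork repair. The longest decreased run held 106 regions over 5.36 Mb between Kdm1a, which encodes a histone lysine demethylase, and Fhad1. The next longest, nearer the centromeric end, held 73 regions over 9.20 Mb from B4galt1 to Grin3a. There were 13 decreased runs of 20 or more regions, which together held 558 of the 811. With 811 of 877 regions decreased, long decreased runs are favoured by the numbers alone.

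Decreased regions formed dense loci, and no increased ones did, a contrast that their unequal numbers alone favour and that was not tested. When regions of the same direction with gaps of at most 12.5 kb were joined, a distance commonly used for enhancer clusters and adopted after the data were seen, the 811 decreased regions gave 584 loci, while the 66 increased regions all stayed single. Of the decreased loci, 439 were single regions and 8 had 5 or more regions, which together held 48. The 3 loci of 7 regions lay nearest to Plpp3, which encodes a lipid phosphate phosphatase that degrades lysophosphatidic acid, Vps13d, which encodes a lipid transfer protein needed for mitochondrial form, and Spsb1, a SOCS box gene. The Plpp3 locus, at chr4:105281129-105317057, lay beyond the end of the gene and had 15.9 kb of its 35.9 kb in decreased regions. Loci of 6 regions lay in Ssbp3, a cofactor of LIM homeodomain complexes, and in Pax7. The Pax7 locus, chr4:139743551-139784082, lay within the gene, spanned 40.5 kb and had 8.94 kb in decreased regions. It contains the Pax7 sequence printed above.

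The 66 increased regions were short and mostly away from transcription starts. By the base at their centre, 12 were promoter-proximal, meaning within 1 kb of an annotated start, 32 intronic, 19 intergenic, 2 in non-coding exons and 1 in a UTR. Their median width was 680.5 bp (quartiles 501 and 926), and 20 (30.3%) had a width of exactly 501 bp, the smallest on the chromosome. The widest covered 3089 bp at chr4:109656068-109659156 and spanned the start of 9630013D21Rik. Its centre lay 7760 bp from the nearest annotated start of Cdkn2c, which encodes the cyclin-dependent kinase inhibitor p18. That start lay inside Cdkn2c, away from its outermost start. The next widest lay in an intron of Slc44a1 (1660 bp) and in the intergenic space nearest to Cylc2 (1648 bp). The others lay in a UTR within the bounds of Lrp8 (1419 bp) and in an intron of the zinc finger gene Zbtb8a (1377 bp). The start nearest to the UTR region was that of Magoh, a gene for a core protein of the exon junction complex. Of the 66, 9 (13.6%) lay more than 100 kb from any protein-coding start, the farthest being 811077 bp from Epha7.

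The 12 promoter-proximal increased regions lay at Tgs1, 2610301B20Rik, Lrrc69, Usp45, Mms22l, Pm20d2, Dnaja1, Patj, 9630013D21Rik, Scmh1, Zmym6 and Smpdl3b. Tgs1 encodes the enzyme that hypermethylates the cap of small nuclear RNAs, Patj a scaffold of tight junctions and cell polarity, Scmh1 a Polycomb protein, and Smpdl3b a membrane phosphodiesterase related to acid sphingomyelinase. In 3 of them, at Patj, 9630013D21Rik and Scmh1, the interval itself contained an annotated start (25%, 8.89% to 53.2%). At Patj and Scmh1 that start lay inside the gene, away from its outermost start. Of the 105 promoter-proximal decreased regions, 72 contained one (68.6%, 59.2% to 76.7%). On the other chromosomes the shares were 311 of 582 increased (53.4%) and 453 of 710 decreased regions (63.8%). The GC content of the 12 increased regions ran from 34.3% at Lrrc69 to 52.3% at Smpdl3b. None of them had an observed to expected CpG ratio above 0.6, a usual limit for CpG islands, compared with 18 of 105 decreased ones (17.1%) and 122 of 582 increased ones elsewhere. The counts of held starts and of CpG ratios were added after the data were seen and were not tested.

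The promoter share was compared in 4 two-sided Fisher's exact tests with Benjamini-Hochberg adjustment, and none passed 0.05. By Fisher's exact test, promoter-proximal regions made up 12 of 66 increased (18.2%, 10.7% to 29.1%) and 105 of 811 decreased regions (12.9%, 10.8% to 15.4%), an odds ratio of 1.49 (p = 0.256, adjusted p = 0.342). Decreased regions elsewhere were promoter-proximal in 710 of 6451, with an odds ratio of 1.20 for chromosome 4 against them (exact p = 0.0987, adjusted p = 0.197). Increased regions elsewhere were so in 15.1%, with an odds ratio of 1.25 (exact p = 0.488, adjusted p = 0.488). All differential regions together were promoter-proximal in 117 of 877 (13.3%) on chromosome 4 and 84 of 846 (9.93%) on chromosome 16, the autosome with the nearest share of increased regions. That odds ratio of 1.40 had an unadjusted p of 0.0295 and an adjusted p of 0.118. The direction of the odds ratio between increased and decreased regions turned when regions under 1 kb were left out (odds ratio 0.514) or when regions within 100 kb were joined (0.538), and the decreased share passed the threshold against the rest of the genome when only protein-coding starts were counted (odds ratio 1.37, adjusted exact p = 0.0216), as did all regions against chromosome 16 (odds ratio 1.64, adjusted exact p = 0.0146). Joining within 100 kb left 60 increased and 249 decreased loci, so decreased loci took up more regions each, and the 0.538 does not compare like units. Neighbouring regions are not independent, and these p-values do not measure agreement between replicates.

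Increased and decreased regions differed in mean GC content by more than the SD of either direction. Their quartile ranges still overlapped, at 39.8% to 45.7% for increased and 45.1% to 53.0% for decreased regions. The mean GC content was 42.7% ± 4.93 (SD, n = 66) in increased regions and 49.2% ± 5.60 (SD, n = 811) in decreased regions. The same order was seen in promoter-proximal regions, at 43.8% ± 5.75 (SD, n = 12) and 53.9% ± 6.66 (SD, n = 105), and in all other regions, at 42.4% ± 4.76 (SD, n = 54) and 48.5% ± 5.08 (SD, n = 706). It held on either side of 80 Mb as well, with 40.4% ± 4.40 (SD, n = 29) against 46.3% ± 4.53 (SD, n = 268) before it and 44.5% ± 4.62 (SD, n = 37) against 50.6% ± 5.53 (SD, n = 543) after it. Elsewhere in the genome the means were 43.6% ± 5.57 (SD, n = 3851) and 47.9% ± 5.22 (SD, n = 6451). Decreased regions were also wider, with a median of 930 bp (quartiles 641.5 and 1612) against 680.5 bp, and 55 of them (6.78%) covered at least 3 kb, compared with 1 increased region. Joined peaks made up 77 decreased (9.49%) and 1 increased region (1.52%), whereas elsewhere 7.55% of decreased and 9.82% of increased regions were joined. Chromosome 16 resembled chromosome 4, with 12.4% of decreased and 3.03% of increased regions joined. The median share of repeat-masked bases was 13.2% in increased and 12.8% in decreased regions. These measures are descriptions over regions, which share libraries and neighbourhoods.

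**Figure D3:**
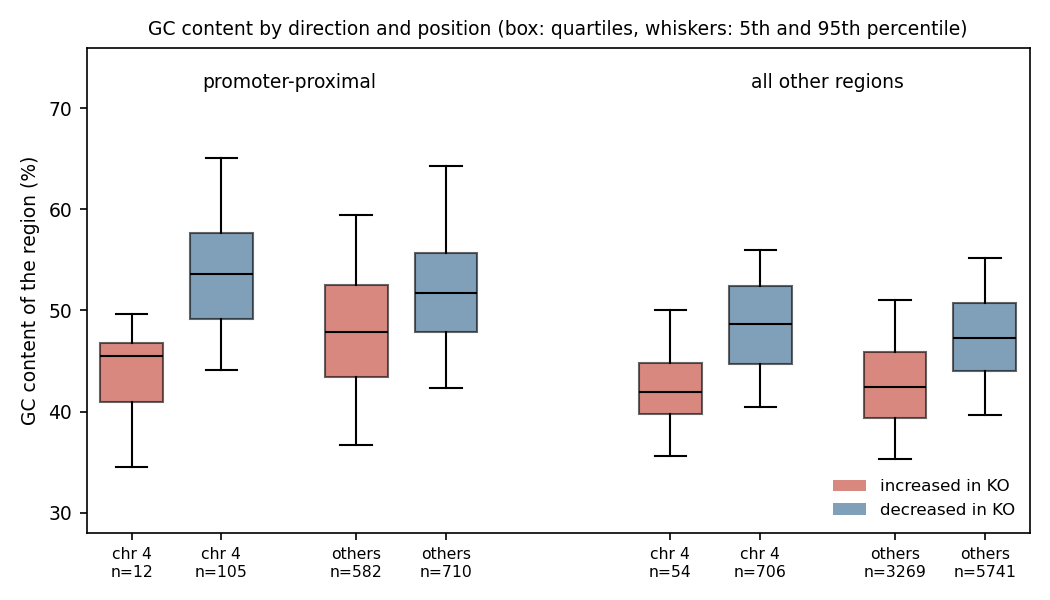
GC content of increased (red) and decreased (blue) regions on chromosome 4 and on the other chromosomes, for promoter-proximal regions at left and all other regions at right (boxes, quartiles with the median, and whiskers, the 5th and 95th percentiles). Mean GC content on chromosome 4 was 43.8% against 53.9% at promoters and 42.4% against 48.5% elsewhere, lower in increased regions in both cases.

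Several decreased regions covered more bases than any increased region. Among the widest were 12064 bp in Myom3 at chr4:135763322-135775385, 10463 bp in Capzb, the gene for the beta subunit of the actin capping protein, 9179 bp in the gene for the calcium-binding protein Efhd2, and 8977 bp in Ssbp3. By the base at their centre these 4 were intronic, but the Efhd2 region also contained the annotated start of that gene. Capzb had 6 decreased regions within the gene.

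Of the 1327 protein-coding genes of chromosome 4, 389 (29.3%) had the start nearest to at least 1 decreased region and 60 (4.52%) the start nearest to at least 1 increased region. The latter number was 39 when the nearest start of any gene was taken and 37 when a region had to overlap the gene body, and the counts for gene lists rest on the nearest protein-coding start. Over all chromosomes these percentages were 17.8% and 10.6%, so the chromosome stood above the genome for decreased and below it for increased regions, as its region counts fix. A total of 362 genes had decreased regions only, 33 increased regions only, 27 both and 905 neither. Within 1 kb of a start of their own, 81 of these genes had the centre of a decreased and 11 that of an increased region. The regions were unevenly shared, since 166 genes with 2 or more decreased regions took 588 of the 811, and 35 genes with 5 or more took 263. No gene had more than 2 increased regions, and the 6 with 2 were Ror1, Bnc2, Lingo2, Lurap1l, Mms22l and Mpdz. Nearest starts do not show which gene a region acts on, and no count was corrected for gene length.

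The 5 genes with the most decreased regions differed in where these lay. Chd7, an ATP-dependent chromatin remodeller mutated in CHARGE syndrome, had 8 of its 17 within the gene and the other 9 in the intergenic space around it, with none at its promoter. Plpp3 had 15 covering 24370 bp, of which only 2 were within the gene. Arhgef10l, a guanine nucleotide exchange factor, had 14 covering 29005 bp, all within the gene and 2 of them promoter-proximal, at starts inside the gene. Hivep3, a large zinc finger transcription factor, had 14 covering 25448 bp, all in introns. Fggy, a carbohydrate kinase, had 13 covering 14888 bp, 11 of them within the gene. None of these 5 genes had an increased region.

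**Figure D4:**
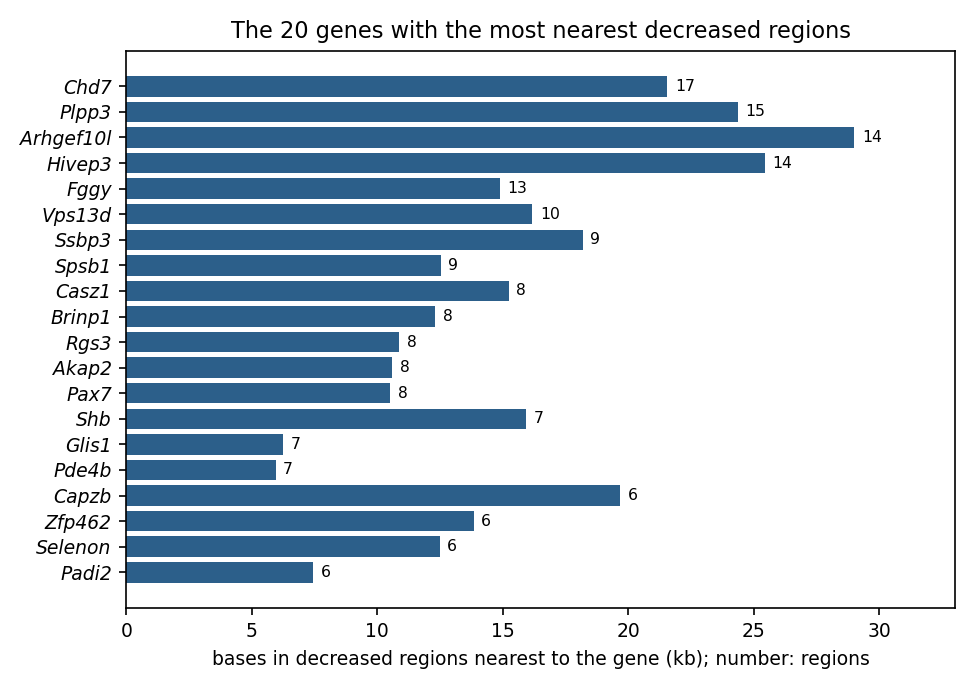
Bases in decreased regions (kb, bars) for the 20 protein-coding genes of chromosome 4 that were nearest to the most decreased regions, with the number of regions beside each bar. Chd7 had the most regions (17), and Arhgef10l the most bases (29005 bp).

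Genes of 6 lists, chosen for muscle and for growth control with earlier results of these data known, were counted beside the 29.3% and 4.52% of all protein-coding genes. Among 15 genes of muscle structure and the neuromuscular junction, 6 (40.0%) had a decreased and 2 (13.3%) an increased region. Selenon, the gene for a selenoprotein of the sarcoplasmic reticulum mutated in congenital myopathy, had 6 decreased regions, 4 of them in the gene and 1 with its centre 13 bp from the start. Musk, the receptor tyrosine kinase gene of the neuromuscular junction, had 2, both intronic, at chr4:58311834-58312623 and chr4:58336170-58336838. Their centres lay 26054 and 50329 bp downstream of the nearest annotated start of the gene, which was not its outermost one. The study itself reported H3K27ac at Musk as unchanged in KO myotubes, and which positions it examined is not given. It also reported no rise of Musk expression in those myotubes, but higher Musk mRNA and protein in a fast-twitch muscle of KO mice. Trim32, a ubiquitin ligase gene mutated in limb-girdle muscular dystrophy, had 1 increased region, 184246 bp from its start, and 2 decreased ones. Macf1, which encodes a crosslinker of microtubules and actin, had 1 of each. Agrn, the ligand that acts on Musk from the nerve, had none.

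Among 25 transcription factors and chromatin regulators of cell fate, 15 (60.0%) had a decreased region and 2 an increased one. After Chd7 and Hivep3, Pax7 had 8 decreased regions covering 10516 bp, with 7 in introns, 1 upstream of the start at 12524 bp and none at the promoter. Runx3 had 6, of which 1 was in the gene, Bach2 had 5, and Klf4 had 3, all outside the gene. Nfia had 1 increased region, 1630 bp from a start and in an intron, and no decreased one. Bnc2 had 2 of each, with the nearest decreased one 290087 bp from a start.

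Among 27 ligands, receptors and growth signalling genes, 17 (63.0%) had a decreased and 3 (11.1%) an increased region. The largest numbers of decreased regions were 8 for Rgs3, a regulator that shortens G protein signals, with 1 centred 185 bp from a start of the gene, 7 for the cAMP phosphodiesterase gene Pde4b, 5 for the Eph receptor gene Ephb2 and 5 for Edn2, which encodes endothelin 2. Jak1, a cytokine receptor kinase gene, and Lrp8, a reelin receptor gene, had 4 each, and Wnt4, Tgfbr1, Epha2 and Lpar1 had 3 each. Within the bounds of Lrp8 also lay the increased region assigned to Magoh, whose start was nearest. The 3 genes assigned increased regions, Errfi1, Ror1 and Epha7, also had decreased ones, but the decreased one of Epha7 lay 1442974 bp from a start. Among 20 genes of extracellular matrix and adhesion, 11 (55.0%) had a decreased region and 1 (5.00%), Tnc, an increased one. Adamtsl1 and the receptor phosphatase gene Ptprf had 4 decreased regions each, and Col15a1 and Hspg2, which encode basement membrane proteins, had 3 each.

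Among 23 genes of energy and lipid metabolism, 9 (39.1%) had a decreased region and 0 an increased one. Apart from Plpp3, H6pd, an enzyme that makes NADPH in the endoplasmic reticulum, had 3, and Sdhb, a subunit of succinate dehydrogenase, Slc2a1, the glucose transporter GLUT1, Acot7 and Abca1, the cholesterol exporter, had 2 each. Among 21 genes of cell cycle and chromatin enzymes, 6 (28.6%) had a decreased region, close to the 29.3% of all genes, and 4 (19.0%) an increased one. The increased regions belonged to Cdkn2c, Smc2, a condensin subunit gene, Mtap, a methionine salvage gene, and Prdm2, a methyltransferase gene that also had 2 decreased regions. The region assigned to Smc2 lay 469376 bp from its start. Phc2, a Polycomb gene, had 4 decreased regions and E2f2, a transcription factor gene of the S phase, had 2.

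**Figure D5:**
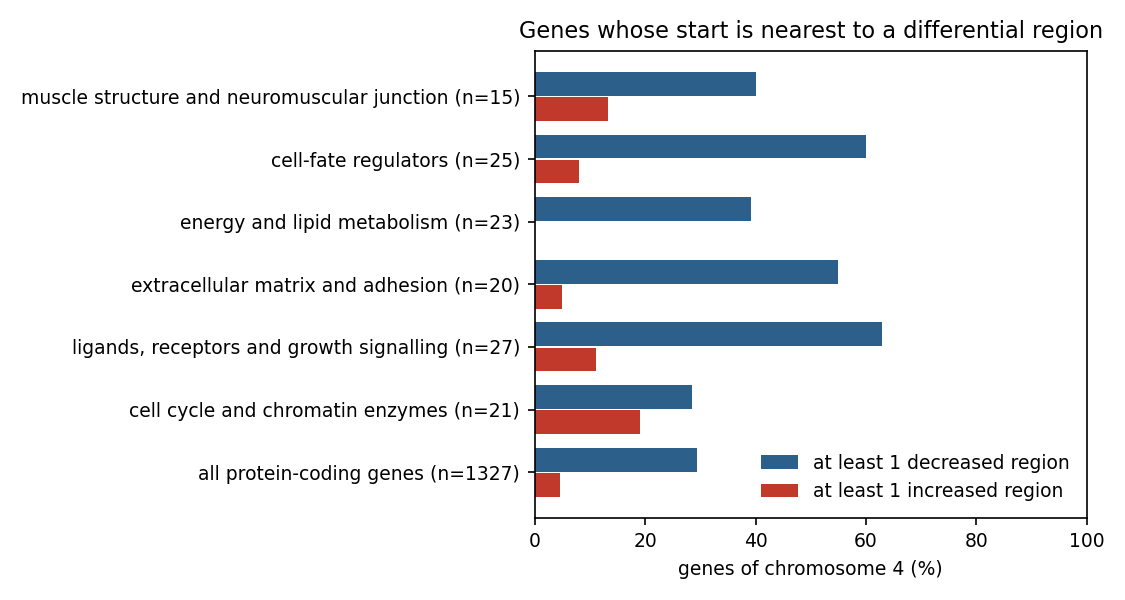
Percentage of the genes on each list, and of all 1327 protein-coding genes of chromosome 4, whose start was nearest to at least 1 decreased (blue) or increased (red) region. Ligands, receptors and growth signalling genes had the highest decreased share (63.0%), and genes of energy and lipid metabolism had no increased region.

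Of the 27 genes with regions of both directions, Ptprd, a receptor phosphatase gene, had the most, with 1 increased and 5 decreased. Gpr157, Errfi1, a feedback inhibitor of the EGF receptor, and Gm26657 had 1 and 4 each. Rngtt, the mRNA capping enzyme, and Rab2a, a small GTPase of the secretory pathway, had 1 and 3 each, Asph and Scmh1 had 1 and 2 each, and Ror1, a Wnt5a receptor, and Bnc2 had 2 and 2. At Errfi1 the increased region ended 1462 bp from a decreased one, whereas at Ror1 the gaps to the nearest decreased region were 61664 and 156766 bp. Some assignments were distant, since the increased region of Gm26657 lay 476331 bp and that of Rngtt 281657 bp from a start of the gene.

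Gene families of the chromosome were counted beside the same 29.3% and 4.52% of all protein-coding genes. No region of either direction was nearest to any of 22 Mup genes (major urinary proteins), 11 Skint genes, 9 Pramel and Pramef genes, 3 Vmn2r genes or 5 gap junction genes, and the 3 smallest of these families are too small to read against these shares. Among 24 olfactory receptor genes 2 had a decreased and 1 an increased region, among 19 cytochrome P450 genes 2 and 0, and among 19 genes with interferon symbols 2 and 1. Members of a family can lie side by side, so these gene counts are not counts of independent units. The families were picked after the gene counts were seen.

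Each region was searched for the 4 motifs over 500 bp around its centre. CAGCTG was present in 328 of 811 decreased (40.4%, 37.1% to 43.9%) and 21 of 66 increased regions (31.8%, 21.8% to 43.8%), compared with 37.6% and 28.8% on the other chromosomes. AP-1 matches were present in 12.2% of decreased and 15.2% of increased regions, compared with 12.8% and 16.6% elsewhere. TEAD matches were present in 13.6% of both, compared with 14.3% of decreased and 17.0% of increased regions elsewhere. MEF2 matches were present in 25 decreased (3.08%, 2.10% to 4.51%) and 4 increased regions (6.06%, 2.38% to 14.6%), compared with 3.43% and 8.54% elsewhere. The intervals of the directions overlap for each motif, and a match describes the letters and not a bound factor.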

How the data were processed

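H3K27ac and IgG CUT&RUN had been performed on nuclei of primary mouse myotubes. Per the labels, the H3K27ac antibody came from Abcam, whereas the methods of the study name Cell Signaling Technology, and the conflict is unresolved. The authors aligned reads to mm10 with BWA-MEM2 2.2.1, called broad peaks with HOMER 4.11 and kept regions with a 2-fold or greater difference in peak intensity, and how replicates and IgG entered the calls is not stated. The deposited lists give positions per region, 1 list per direction, with a score and a strand that are constant and were not used. No value per library was used here, so depth, precision and replicate spread are unknown. A difference between cultures in DNA copy number, in depth or in reaction efficiency would pass into such calls, and no value here measures these.

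Positions are counted from 1. Genes and starts were from GENCODE release M21 and sequence from GRCm38.p6. Promoter-proximal meant a region centre within 1 kb of any annotated start. Intronic and the other classes were read from the base at the region centre. Each region was assigned to the nearest protein-coding start. Windows of 10 Mb began at base 1. Counts are given with 95% Wilson intervals, which cover counting error over regions only. Promoter shares were compared with two-sided Fisher's exact tests in scipy 1.17.1, adjusted by Benjamini-Hochberg over 4 tests and tested on simulated data, with numpy 2.4.6 and pandas 2.3.3 in Python 3.11.15.

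Genes were named by rule: promoter-proximal increased regions, the 5 widest of each direction, the 5 genes with the most decreased regions, up to 10 genes with both directions, and listed genes with 3 or more regions or an increased one, with Musk, Pax7, Agrn and Chd7 always named. Other genes with 2 regions, neighbours at run ends and closest gaps were named after their values were seen. Items withheld from this text, 1 of the widest decreased regions and 1 sequence among them, are not reported here. The members and the 6 gene lists were chosen with earlier results of these data known. Alternatives were other promoter distances, annotations, widths, window sizes, joining distances and gene assignments.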

Additional observations from a re-analysis of the deposited data

How the results depend on the processing

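No paired analysis was possible because the lists hold no value per library, and for the same reason no replicate could be left out. Under the alternatives, 23 recomputed values stayed on the same side with the same direction or, for counts, within 1.5 times. With regions of at least 1 kb alone, the odds ratio for promoters in increased against decreased regions was 0.514, that for increased regions here against elsewhere was 0.414, and the share of increased regions was 3.66%. With regions within 100 kb joined, these were 0.538, 0.973 and 19.4% (44.0% elsewhere). The odds ratio for decreased regions here against elsewhere was then 1.88 (adjusted exact p = 8.4e-05). Joining turned 811 decreased regions here into 249 loci, and 6451 elsewhere into 2940. Decreased loci here thus took up more regions each, so the 1.88 does not compare like units. Joining within 10 kb gave 9.69% increased. At a promoter distance of 0.1 kb, the odds ratios were 1.71 for decreased regions here against elsewhere (adjusted exact p = 0.0492) and 2.45 against chromosome 16 (adjusted p = 0.0492). Protein-coding starts alone gave 1.37 (adjusted p = 0.0216) and 1.64 (adjusted p = 0.0146), and a distance of 2.5 kb gave 1.41 against chromosome 16 (adjusted p = 0.0201), all by Fisher's exact test. The causes were not tested, beyond the fewer regions left at 1 kb. Genes with an increased region numbered 39 by the nearest start of any gene and 37 by overlap of the gene body, compared with 60. Depth is unknown, so no region can be ranked by its precision, and regions without a call were not analysed here.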
